A study of Mus musculus with 6 samples.

Results

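The P4-ATPases, or phospholipid flippases, are membrane pumps that use ATP to move lipids from the outer to the cytosolic leaflet of a membrane. RNA sequencing counts were examined for 9 of their genes, Atp8a1, Atp8b2, Atp8b4, Atp9a, Atp9b, Atp10a, Atp10d, Atp11a and Atp11b, out of 54532 genes listed. The genes were taken by name, and the family was picked because the count of Atp10d fell strongly with the inhibitor ALX-5407. The change of Atp10d is therefore described and not tested. The members were thus chosen by measured counts of this same comparison. Means are given ± SD over the 3 libraries of a group.

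CD4+ T cells from the spleens of male C57BL/6 mice (6 to 8 weeks old) were activated with antibodies to CD3 and CD28. They were cultured for 72 h under Th1 conditions (IL-2, IL-12 and an antibody to IL-4), which direct these cells toward IFN-γ production. The control group (n = 3) held vehicle, and the ALX-5407 group (n = 3) held 500 nM ALX-5407, which blocks GlyT1, a transporter that brings glycine into cells. The paper's RNA sequencing methods state a shorter exposure than the 72 h of the labels. Its culture methods and the figure legend for these data give the full culture time. The sequencing methods also state depletion of ribosomal RNA where the labels describe capture on poly-T beads. The labels call the 3 cultures of a group biological replicates without naming the animals. Libraries held 30801753 to 36727788 counts, and 15938 genes passed the filter on low counts and were tested.

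Flippases keep phosphatidylserine and phosphatidylethanolamine on the cytosolic side of the plasma membrane, and phosphatidylserine at the surface of a dying cell is a signal for its uptake by phagocytes. Most of them leave the endoplasmic reticulum only with a CDC50 subunit, usually CDC50A, the product of Tmem30a. ATP8A1, ATP11A and ATP11B carry aminophospholipids, ATP8B2 and ATP10A carry phosphatidylcholine, and ATP10A and ATP10D carry glucosylceramide. ATP9A and ATP9B reside in endosomes and the trans-Golgi network and do not need CDC50A.

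P-type ATPases carry a conserved aspartate that takes the phosphate of ATP in each transport cycle. Its coding site, searched in frame in the longest coding sequence of each gene as 5 codons with any base in the last place of each, was found in 9 of the 9 members. It was found in 61 (0.279%) of 21846 protein-coding genes of GENCODE M21. The sites of 8 members are shown because they place the catalytic site in each gene, and the site is one of P-type ATPases and not of flippases alone. Capitals mark the 15 bases of the site, whose codons differ between members in their last base alone, read 5′ to 3′ on the coding strand from GENCODE M21 transcripts.
Atp8a1: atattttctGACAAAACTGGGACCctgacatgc
Atp8b2: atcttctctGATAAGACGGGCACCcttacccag
Atp8b4: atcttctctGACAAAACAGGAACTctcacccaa
Atp9a: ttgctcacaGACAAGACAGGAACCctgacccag
Atp10a: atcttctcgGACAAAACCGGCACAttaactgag
Atp10d: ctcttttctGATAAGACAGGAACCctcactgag
Atp11a: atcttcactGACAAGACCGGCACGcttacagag
Atp11b: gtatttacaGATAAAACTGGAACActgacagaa
In GRCm38 these capitals lie at chr5:67761170-67761184 (- strand, Atp8a1), chr3:89949864-89949878 (-, Atp8b2), chr2:126397643-126397657 (-, Atp8b4), chr7:58788362-58788376 (+, Atp10a), chr5:72247221-72247235 (+, Atp10d), chr8:12831103-12831117 (+, Atp11a) and chr3:35809375-35809389 (+, Atp11b). In Atp9a an intron splits the site, which spans chr2:168673585-168674801 (-). No 2 of the 8 members shared the same 15 bases.

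Atp10d differed from the other members in its annotation. The count file lists it as a polymorphic pseudogene, a gene that is intact in some strains and disrupted in others, and the other 8 members as protein-coding. C57BL/6 mice are known to carry a nonsense mutation in Atp10d. In the GRCm38 reference, which is C57BL/6J, the Atp10d-202 reading frame holds 1 internal stop codon, TAA, in exon 12 of 23. The longest reading frames of the other 8 members hold 0. The window with the stop codon in capitals is shown because it bears on what the Atp10d transcript can encode, at chr5:72264459-72264485 (+ strand, GRCm38).
Atp10d: tcattaacatttTAActcctacacatt
The stop is codon 817 of 1469, past the phosphorylation site at codon 491, and 652 codons of the frame follow it. The file holds counts per gene, so whether the sequenced transcripts carry this codon was not analysed here.

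Among the 8 members other than Atp10d, 4 fell (Atp11a, Atp11b, Atp9a and Atp8b4), 2 rose (Atp8a1 and Atp8b2) and 2 did not pass the test (Atp9b and Atp10a). Calls were made with the quasi-likelihood test of edgeR at an adjusted p under 0.05, with the Benjamini-Hochberg correction spanning all 15938 genes. By that rule 47.7% of all genes tested were called, 23.2% lower and 24.5% higher. The 6 of 8 members called thus stood beside a comparison in which close to 1 gene in 2 passed. The median log2 fold change of the 8 members was -0.14, against 0.0053 over all genes tested. None of the 8 also had an absolute log2 fold change over 1, the study's second threshold, which 10% of all genes tested passed together with the first (6.68% lower and 3.36% higher). For 7 of the 8 the vehicle and ALX-5407 libraries did not overlap, which was so for 55.5% of all genes tested (27.1% lower and 28.4% higher). All 9 members passed the filter on low counts, and each had at least 588 counts in every library.

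**Figure D1:**
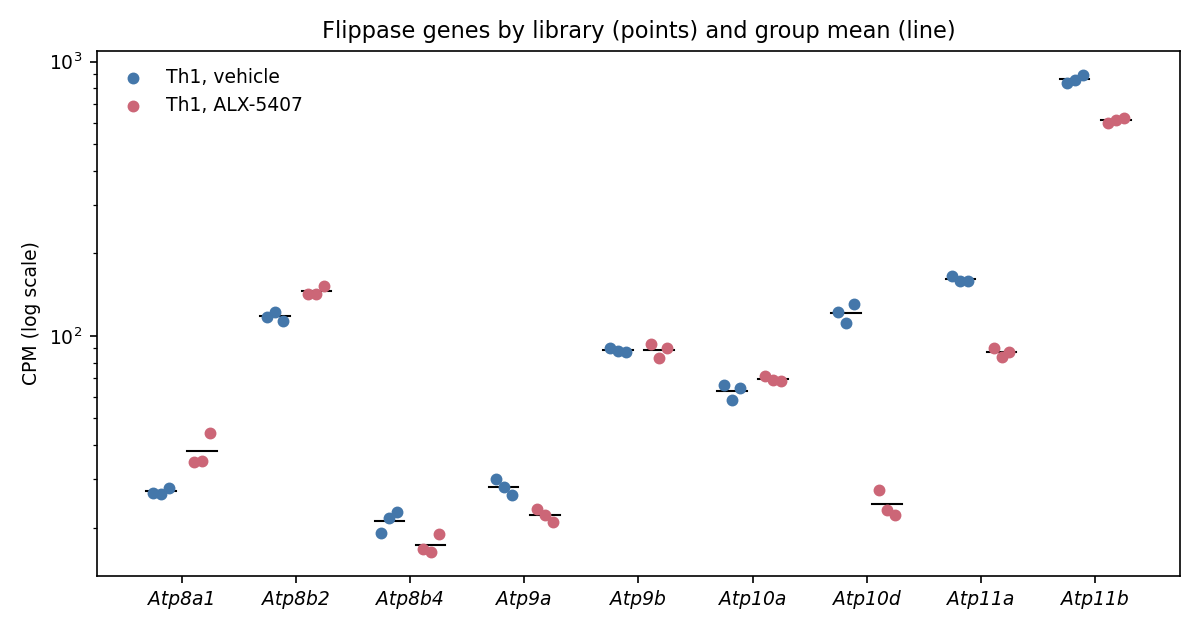
Level of each flippase gene in CPM (counts scaled to library size with TMM factors; log axis) in the 3 vehicle and 3 ALX-5407 libraries, 1 point per library, with the group mean as a line. The groups do not overlap for any gene except Atp9b, and Atp10d moves from 111 to 131 CPM down to 22.2 to 27.5 CPM.

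Atp10d (ENSMUSG00000046808) lies on chromosome 5 from 72203329 to 72298775 in GRCm38. Its counts were 3969, 3481 and 4041 in the vehicle libraries and 972, 866 and 777 with ALX-5407. In CPM these were 122, 111 and 131 against 27.5, 23.2 and 22.2. Every treated library thus lay below every vehicle library. The mean went from 121 ± 10.2 to 24.3 ± 2.84 CPM, a level 5.0-fold lower, with a log2 fold change of -2.32 (SE 0.0943). This change chose the family and has no test here. Counted from the lowest log2 fold change, Atp10d had rank 124 among all 15938 genes tested. Among the 12117 of them with a mean of at least 50 counts it had rank 41. No annotated gene overlaps Atp10d.

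Atp10a, the other class V gene among the members (chromosome 7, 58656166 to 58829420), encodes a pump for phosphatidylcholine and glucosylceramide. Its level was 66.2, 58.6 and 64.4 CPM with vehicle and 71.6, 69.0 and 68.5 CPM with ALX-5407. All treated libraries were above all vehicle libraries. Its log2 fold change of 0.14 (SE 0.0744, 95% interval -0.013 to 0.30) did not pass the test (edgeR, adjusted p = 0.123). Per kilobase of gene length, Atp10a stood at 0.731 ± 0.0382 of the Atp10d level with vehicle and at 4.06 ± 0.36 times that level with ALX-5407. This ratio holds the 5.0-fold fall of Atp10d that chose the family, while the mean of Atp10a was 1.11 times its vehicle level.

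Both class VI genes among the members fell. Atp11a (chromosome 8, 12757014 to 12868728) encodes an aminophospholipid flippase of the plasma membrane. Its level was 165, 159 and 159 CPM with vehicle and 90.3, 83.9 and 87.4 CPM with ALX-5407, so that the groups were far apart. The mean fell from 161 ± 3.66 to 87.2 ± 3.19 CPM, a log2 fold change of -0.89 (SE 0.0687, adjusted p = 4.94e-08 from edgeR). The antisense genes Gm15350 and Gm15347 overlap 1.78% and 1.54% of its exon bases, with at most 18 and 98 counts in any library, against at least 3063 on Atp11a.

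Atp11b (chromosome 3, 35754106 to 35856276), a flippase of the endosomal system, was the most abundant member. It held 833, 860 and 897 CPM with vehicle and 597, 615 and 621 CPM with ALX-5407. The lowest vehicle library was above the highest treated one. The mean fell from 864 ± 32.3 to 611 ± 12.5 CPM, a log2 fold change of -0.50 (SE 0.0682, adjusted p = 1.71e-05 from edgeR).

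The class I members moved in both directions. Atp8a1 (chromosome 5, 67618140 to 67847434), an aminophospholipid flippase, was counted at 26.7, 26.6 and 28.0 CPM with vehicle and at 34.7, 34.9 and 44.4 CPM with ALX-5407. ALX-5407 replicate 3 was the highest, and the groups did not overlap. The gene rose by a log2 fold change of 0.49 (SE 0.1, adjusted p = 0.000787 from edgeR), and by 0.37 without that library, still past the test.

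Atp8b2 (chromosome 3, 89939481 to 89963508), a phosphatidylcholine flippase, was at 117, 122 and 114 CPM with vehicle and at 142, 142 and 151 CPM with ALX-5407. It was higher in each treated library than in any vehicle library, with a log2 fold change of 0.30 (SE 0.0689, adjusted p = 0.00165 from edgeR). Atp8b4 (chromosome 2, 126320973 to 126500674) went from 19.2, 21.6 and 22.8 CPM to 16.7, 16.3 and 19.0 CPM. The highest treated library lay just under the lowest vehicle library. Its log2 fold change was -0.29 (SE 0.106, adjusted p = 0.0321 from edgeR), and this call was lost without vehicle replicate 2 (-0.29, adjusted p = 0.0681), vehicle replicate 3 (-0.25, adjusted p = 0.0698), ALX-5407 replicate 1 (-0.26, adjusted p = 0.115) or ALX-5407 replicate 2 (-0.24, adjusted p = 0.133), all from edgeR.

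The class II genes encode the flippases that work without CDC50A. Atp9a (chromosome 2, 168634438 to 168742409) was at 30.2, 28.0 and 26.4 CPM with vehicle and at 23.3, 22.3 and 20.96 CPM with ALX-5407. It fell by 0.34 on the log2 scale (SE 0.0924, adjusted p = 0.00566 from edgeR), with no overlap between the groups. Atp9b (chromosome 18, 80734141 to 80934058) was at 90.5, 88.4 and 87.3 CPM with vehicle and at 93.2, 83.0 and 90.6 CPM with ALX-5407. The groups overlapped, the log2 fold change was 0.0028 (adjusted p = 0.98 from edgeR), and its 95% interval ran from -0.15 to 0.16.

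**Figure D2:**
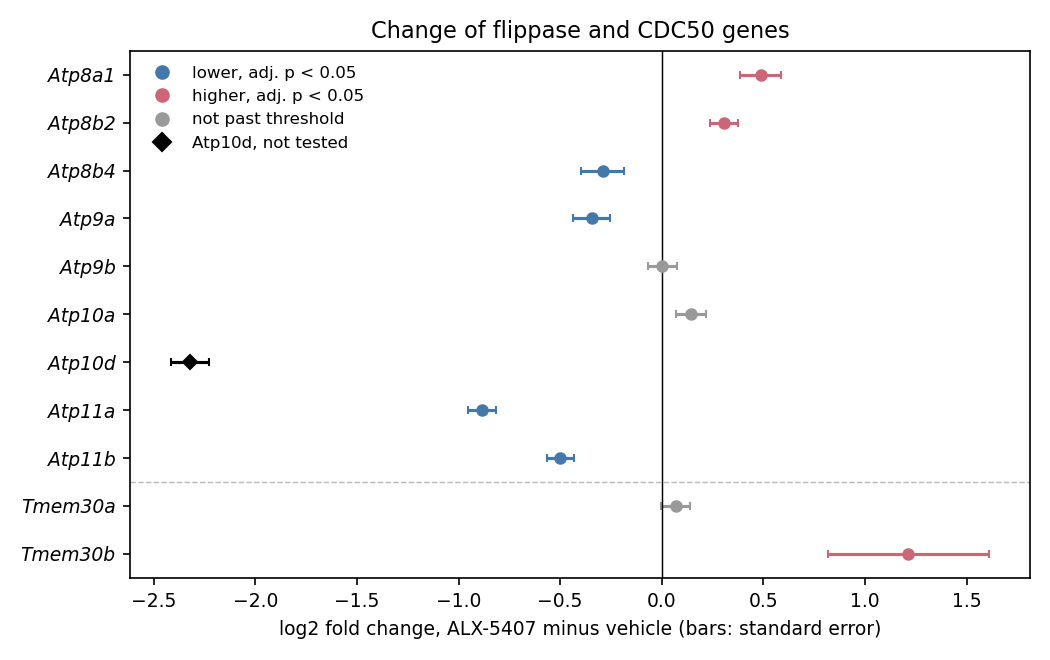
Log2 fold change (ALX-5407 minus vehicle, 3 libraries each) of the 9 flippase genes and, under the dashed line, of the CDC50 subunit genes Tmem30a and Tmem30b. Bars are standard errors, colours give the call at an adjusted p under 0.05, and the black diamond is Atp10d at -2.32, which has no test.

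To compare members with each other, CPM was divided by the gene length in the file to give RPKM (CPM per kilobase). This length merges the exons of all transcripts, so a gene with many alternative exons is set too low. With vehicle, Atp11b stood first at 94.1 ± 3.52 RPKM, followed by Atp10d (15.5 ± 1.29), Atp11a (14.4 ± 0.328) and Atp8b2 (13.8 ± 0.48). The values of Atp10d and Atp11a, and those of Atp11a and Atp8b2, overlapped, so the order of these neighbours was not resolved. Below them came Atp10a (11.3), Atp9b (8.73), Atp9a (4.76), Atp8b4 (3.18) and Atp8a1 (1.90), each with no overlap with the next. With ALX-5407, Atp11b was still first at 66.6 ± 1.36 RPKM. Atp10d was then seventh at 3.10 ± 0.362 RPKM, where its values overlapped those of Atp8a1 (2.66 ± 0.388). By CPM, without the length, Atp10d ranked behind Atp11b and Atp11a with vehicle.

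The summed level of the 9 members was 165, 165 and 172 RPKM with vehicle and 124, 123 and 127 RPKM with ALX-5407. It was lower in each treated library than in any vehicle library. Atp11b made up 56.1% ± 1.1 of this sum with vehicle and 53.4% ± 0.954 with ALX-5407, and Atp10d made up 9.22% ± 0.604 and 2.48% ± 0.307. Without Atp11b the sum went from 73.5 ± 1.62 to 58.1 ± 1.58 RPKM. All these sums include the fall of Atp10d, from 15.5 to 3.10 RPKM, for which the family was chosen. They are therefore no result about the other members, and no sum without Atp10d is given. In bulk RNA, fewer cells that carry a transcript and less of it in each cell cannot be told apart.

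**Figure D3:**
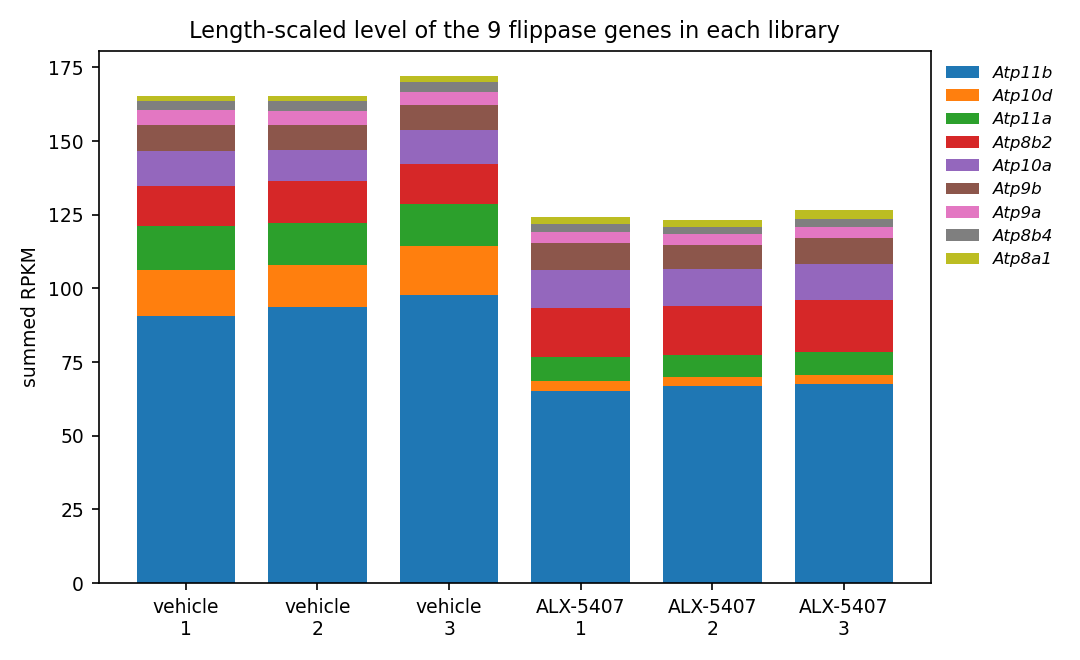
Summed RPKM (CPM per kilobase of gene length) of the 9 flippase genes in each of the 6 libraries, with 1 coloured segment per gene in the order of the vehicle means. The bars reach 165 to 172 with vehicle and 123 to 127 with ALX-5407, Atp11b is the large segment at the base, and the Atp10d segment above it shrinks.

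P4-ATPase genes that are no members and did not pass the filter were Atp8a2, Atp8b1, Atp8b3, Atp8b5 and Atp10b. Atp8a2 had 4 to 23 counts per library, and the other 4 had at most 6. Tmem30a, which encodes the CDC50A subunit, was at 217 ± 10.7 CPM with vehicle and 227 ± 5.56 CPM with ALX-5407. Its log2 fold change of 0.068 (95% interval -0.079 to 0.21) did not pass the test (edgeR, adjusted p = 0.451). Tmem30b rose by 1.21 on the log2 scale (SE 0.396, adjusted p = 0.0183 from edgeR) from only 10 to 19 counts to 33 to 41. This call was lost without vehicle replicate 2 (1.01, adjusted p = 0.0877) and without ALX-5407 replicate 1 (1.13, adjusted p = 0.0623), both from edgeR. Tmem30c had at most 3 counts.

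Lists of functionally related genes were read from the same fit, beside the 23.2% lower and 24.5% higher among all genes tested. Scramblases let lipids pass between leaflets in both directions, and some of them expose phosphatidylserine. Of 23 scramblase and partner genes, 14 were tested, 5 fell and 4 rose, with a median log2 fold change of 0.011. Bsg, which encodes a chaperone partner of XKR8, fell from 1118 ± 108 to 672 ± 39.5 CPM (log2 fold change -0.73), Tmem63b fell by 0.74 and Ano7 by 1.44 on the log2 scale. Xkr5 (0.89), Vmp1 (0.27) and the calcium-gated scramblase gene Ano6 (0.23) rose. The largest adjusted p among these 6 was 0.0161 (edgeR). Xkr8, the scramblase cut by caspases in apoptosis, was at 3.29 ± 0.492 and 4.05 ± 0.709 CPM (adjusted p = 0.242 from edgeR). The number that fell was 3 without vehicle replicate 1, ALX-5407 replicate 1 or ALX-5407 replicate 2, and the number that rose was 2 without vehicle replicate 2 or ALX-5407 replicate 2, and with upper quartile factors. Vmp1 did not pass without vehicle replicate 2 (adjusted p = 0.0512), nor Ano6 without ALX-5407 replicate 2 (adjusted p = 0.0574) or with upper quartile factors (adjusted p = 0.0557), all from edgeR.

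Of 6 genes for Golgi and endosome proteins that work with flippases, all tested, 2 rose and 1 fell. Dopey2, a relative of the yeast partner of the ATP9-type flippase, rose from 24.5 ± 2.16 to 49.6 ± 0.744 CPM, a log2 fold change of 1.02 (SE 0.0863, adjusted p = 1.21e-07 from edgeR). Ehd1, which encodes an endosomal recycling ATPase, rose by 0.56 (adjusted p = 1.55e-05 from edgeR), and the small GTPase gene Arl1 fell by 0.40 on the log2 scale (adjusted p = 0.000218 from edgeR). Mon2, Dopey1 and Snx3 did not pass the test. The median of this list was 0.022.

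Enzymes that make the cargo of flippases moved both ways. Of 15 genes for phosphatidylserine, phosphatidylethanolamine and phosphatidylcholine synthesis and transfer, all tested, 5 rose and 3 fell, with a median log2 fold change of 0.044. Etnk1, an ethanolamine kinase, rose from 230 ± 1.38 to 381 ± 35.5 CPM, with a log2 fold change of 0.73 (edgeR, adjusted p = 1.15e-06). Pcyt1a, a gene of phosphatidylcholine synthesis (0.62), and the phosphatidylserine transfer gene Osbpl5 (0.72) also rose. Etnk2 fell by 0.73, Chkb by 1.88 (from a mean of only 19.8 counts) and the phosphatidylserine synthase gene Ptdss1 by 0.21 on the log2 scale. The Ptdss1 call (adjusted p = 0.0475 from edgeR) was lost without any 1 of 5 libraries, with adjusted p from 0.0851 to 0.167 in edgeR. These were vehicle replicates 1 and 2 and ALX-5407 replicates 1 to 3. With every library kept, it was also lost in DESeq2 (adjusted p = 0.0615). The same held in edgeR with no filter beyond a total count above 0 (adjusted p = 0.103).

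Glucosylceramide is a lipid that intact ATP10D carries, while the reference frame of Atp10d in this strain holds the stop codon given above. Transport of this lipid was not measured. Of 29 listed genes of sphingolipid metabolism, 23 were tested, 8 rose and 4 fell, with a median log2 fold change of 0.017. The glucosylceramide synthase gene Ugcg was at 123 and 119 CPM and did not pass the test (log2 fold change -0.040, adjusted p = 0.667 from edgeR). St3gal5, which encodes the synthase of the ganglioside GM3, rose from 1.66 ± 0.632 to 8.19 ± 1.17 CPM, a log2 fold change of 2.30 (SE 0.227, adjusted p = 5.45e-07 from edgeR). The ceramide kinase gene Cerk (0.84) and the sphingomyelin synthase gene Sgms1 (0.59) rose, and the ceramide transfer gene Col4a3bp (-0.34), the ceramide synthase gene Cers5 (-0.31) and the desaturase gene Degs1 (-0.24) fell. Degs1 did not pass without ALX-5407 replicate 2 (adjusted p = 0.0836) or 3 (adjusted p = 0.109) in edgeR, and without either of these libraries 2 genes of the list fell.

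ABC transporters move lipids outward, against the direction of flippases. Of 9 listed genes, all tested, 5 fell and 3 rose, with a median log2 fold change of -0.20. The cholesterol and phospholipid exporter gene Abca1 fell from 53.5 ± 3.85 to 26.6 ± 1.57 CPM and Abcg1 rose from 20.7 ± 2.01 to 54.6 ± 1.67 CPM, with log2 fold changes of -1.01 and 1.40 and adjusted p-values of 1.26e-07 and 5.87e-09 in edgeR. Abcb1a (-1.41) and Abcb1b (-0.38) fell, and Abca2 (0.39) and Abcc1 (0.34) rose. Among 22 P-type ATPases that are not flippases, 14 were tested, 5 rose and 2 fell, with a median of 0.10. The calcium pump gene Atp2a2 (0.63) and Atp13a3 (0.46) rose, and the calcium pump genes Atp2b4 (-0.38) and Atp2c1 (-0.22) fell. Atp2c1 did not pass without ALX-5407 replicate 1 (adjusted p = 0.12) or 2 (adjusted p = 0.0533) in edgeR, which left 1 gene lower.

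**Figure D4:**
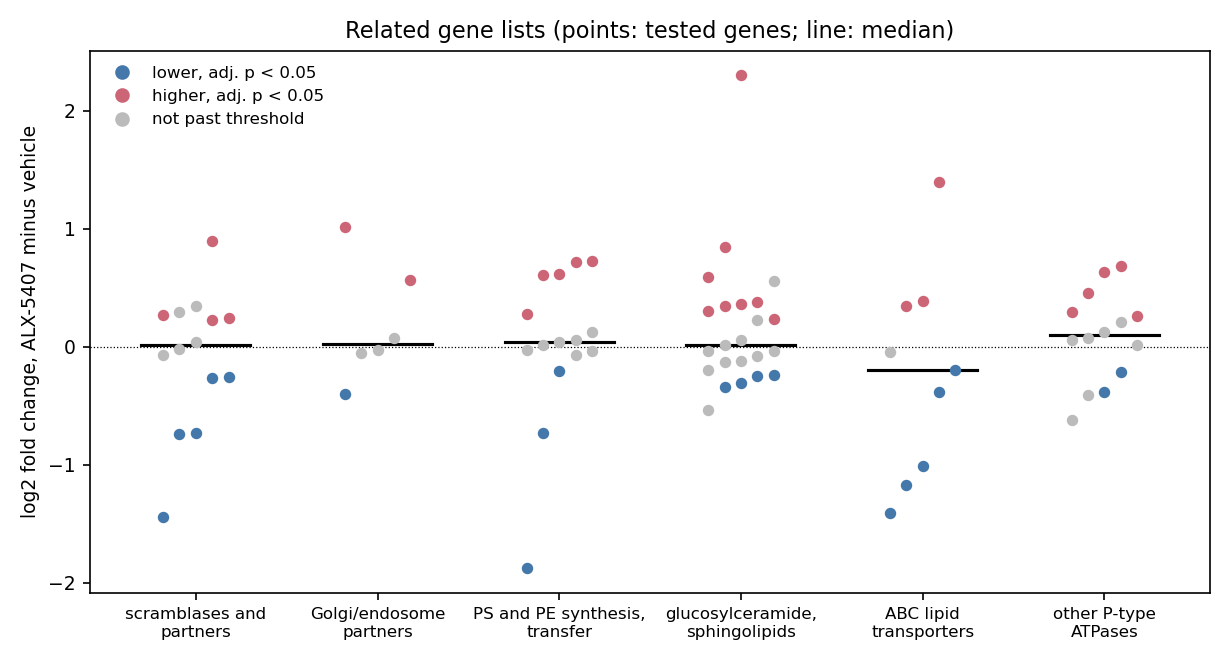
Log2 fold change (ALX-5407 minus vehicle) of the tested genes of 6 lists related to flippases, 1 point per gene, coloured by its call at an adjusted p under 0.05, with the list median as a line. The medians lie between -0.20 (ABC lipid transporters) and 0.10 (other P-type ATPases), and St3gal5 is the point at 2.30.

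Around Atp10d, 23 other genes of the file lay within 500000 bases, and 7 of them were tested. Of these, 5 fell, none rose and 2 did not pass the test, beside 23.2% lower and 24.5% higher among all genes tested. The nearest tested gene, Commd8, a regulator of protein sorting 35140 bases away, fell from 66.2 ± 5.84 to 45.8 ± 1.4 CPM, with a log2 fold change of -0.53 (edgeR, adjusted p = 5.04e-05). Corin, only 1250 bases downstream, had at most 10 counts. Txk and Tec, a pair of TEC-family kinase genes of T cells, fell by 1.18 (adjusted p = 1.73e-08) and 0.51 (adjusted p = 0.000293) on the log2 scale in edgeR, at distances of 397203 and 456941 bases. Nfxl1 fell by 0.32 (adjusted p = 0.00475 from edgeR). Gm43815 lies within the span of Nfxl1 on the same strand, so these 2 of the 5 may share reads, which was not tested. Gm43815 fell by 1.54 from a mean of 14.3 counts (adjusted p = 0.0162 from edgeR), which was lost without vehicle replicate 2 (adjusted p = 0.0765) or ALX-5407 replicate 3 (adjusted p = 0.0651). Gm5297 (0.95, adjusted p = 0.0696) and Nipal1 (0.43, adjusted p = 0.229) did not pass in edgeR, although Gm5297 did without ALX-5407 replicate 2 (1.19, adjusted p = 0.0407).

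**Figure D5:**
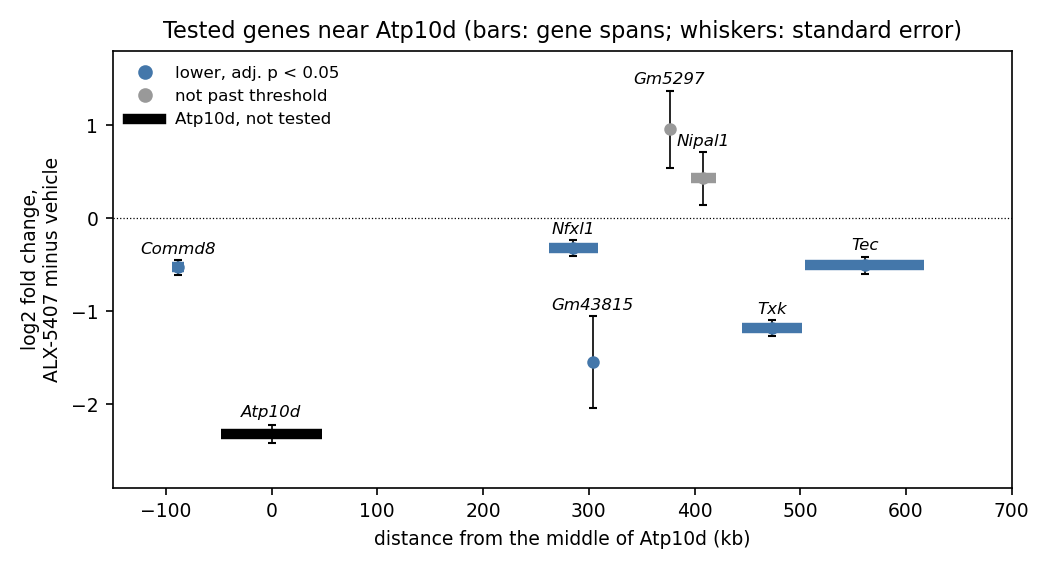
Log2 fold change (ALX-5407 minus vehicle) of the 7 tested genes within 500000 bases of Atp10d, drawn over their spans against the distance from the middle of Atp10d, with standard errors as whiskers. Of the 7, 5 lie below 0, from -1.54 to -0.32, and Atp10d (black, not tested) lies at -2.32.

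The genes most like Atp10d were found as the protein-coding genes with the smallest root mean square difference in log2 CPM, centred on the vehicle mean, over the 6 libraries. They were Sgip1 (0.12), Cdh23 (0.151), Dapl1 (0.168), Lad1 (0.169) and Ramp3 (0.177), on chromosomes 4, 10, 2, 1 and 11. Cdh23, which encodes a cadherin, went from 71.3 ± 9.33 to 15.6 ± 0.246 CPM, and Ramp3, which encodes a receptor activity-modifying protein, from 71.3 ± 3.94 to 16.2 ± 2.84 CPM. The 5 log2 fold changes ran from -2.39 to -2.14, a range set by how these genes were chosen.

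The label of the cells was checked against markers. All 7 CD4 T cell markers and all 4 Th1 markers were counted in every library, with summed levels of 2299 to 2449 and 594 to 662 CPM with vehicle and 2222 to 2241 and 601 to 622 CPM with ALX-5407. In the same edgeR fit, in which 23.2% of all genes were lower and 24.5% higher, 4 of the 7 CD4 T cell markers fell and 1 rose, and 3 of the 6 B cell markers rose. Of the 4 Th1 markers, Stat4, which encodes a transcription factor downstream of IL-12, fell from 63.9 ± 7.94 to 28.6 ± 0.355 CPM (log2 fold change -1.16, adjusted p = 5.55e-08). Tbx21, which encodes the Th1 transcription factor T-bet, rose by 0.34 on the log2 scale (edgeR, adjusted p = 0.000941), and Il12rb2 and Cxcr3 did not pass the test. B cell markers were counted in every library (6 of 6), with sums of 61.1 to 67.7 CPM with vehicle and 73.4 to 76.5 CPM with ALX-5407, so that they moved with the groups. Sums also differed for neutrophil markers (69.9 to 75.3 against 24.1 to 31.6 CPM), where S100a8, S100a9 and Elane were at 0 and Ly6g held nearly all counts. Those of NK cell (1.92 to 3.41 against 4.96 to 5.58 CPM), erythroid and megakaryocyte (3.50 to 5.13 against 7.27 to 9.57 CPM), CD8 T cell (9.25 to 9.59 against 6.71 to 8.87 CPM) and dendritic cell markers (3.99 to 4.74 against 2.88 to 3.67 CPM) differed too. Among these markers, Ncr1 (NK cell) and Siglech (dendritic cell) were at or near 0, with mean counts of 1.33 and 0. Others were not. The 1 NK cell marker tested was called higher (log2 fold change 1.05), and the 2 dendritic cell markers tested did not pass. The 2 erythroid and megakaryocyte markers tested were called higher (0.95 and 1.69). The 1 neutrophil marker tested was called lower (-1.42), as was 1 of the 2 CD8 T cell markers. Macrophage and monocyte markers summed to at most 0.78 CPM. The part of these cell types in the flippase values was not tested.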

How the data were processed

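The authors deposited raw counts, the number of reads on each gene in each of 6 libraries, without normalization or pooling, together with gene positions and lengths. The submitters' processing notes name fastp, HISAT2 2.0.5, featureCounts 1.5.0-p3 and mm10. The annotation release, the strand setting and the treatment of reads that map to several places are not given in the sources used here, so antisense and near-identical genes can share reads. The transcript with the longest coding sequence of each member was compared with all GENCODE M21 transcripts (BLAST 2.17.0). No other gene held a copy of 95% identity over 100 bases, apart from the genes antisense to Atp11a. The genome itself was not searched. Start and end matched GENCODE M21 for 8 of the 9 members, and for Atp9b those of the file are printed.

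Counts were filtered with filterByExpr (minimum count 10, minimum total 15), scaled by TMM and tested with the quasi-likelihood F test of edgeR 4.0.16 (R 4.3.3), with group as the only term. Adjusted p-values (Benjamini-Hochberg) cover all 15938 genes tested. CPM and RPKM use library sizes scaled by TMM. Standard errors were obtained from the log2 fold change and its F statistic. The smallest p of an exact 2-sided permutation test on 1 gene is 0.1 in this design. Within groups, pairs of libraries exceeded sampling noise (chi-square per degree of freedom 5.58 to 22.3), so none is a copy of another. Each was counted as a replicate as labelled, since this measure cannot tell separate cultures from separate preparations of 1 culture. Whether the replicates came from separate animals is not stated, so p-values measure the spread between these cultures. In simulated counts for this comparison (15952 genes tested), 81 of 90 genes changed by 1 on the log2 scale and 106 of 106 changed by 2 were called. Of the unchanged genes, 9 were called. The simulation changed few genes and gave all genes the same dispersion, unlike the data. Changes smaller than 1, as in the members other than Atp10d, were not simulated.

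The members and lists were chosen with earlier results of these data known. The genes named are the 9 members, other P4-ATPase genes and the CDC50 genes, up to 3 called genes in each direction with the smallest p in every other list, the tested genes near Atp10d, overlapping genes, the 5 genes most like Atp10d and the cell type markers. Results for some items of these lists are not reported here. Xkr8, Ugcg, Mon2, Dopey1, Snx3 and Corin were named after their values were seen. Alternatives were other scalings, DESeq2 1.42.0, limma-voom (limma 3.58.1), other filters, a replicate block and each library left out in turn. Plots used matplotlib 3.10.9 (Python 3.11.15).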

Additional observations from a re-analysis of the deposited data

How the results depend on the processing

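The log2 fold changes of Atp11a, Atp11b, Atp9a, Atp8a1 and Atp8b2 kept their direction and stayed past the test under all 13 alternatives (2 other scalings, DESeq2, limma-voom, 2 other filters, a replicate block and 6 fits without 1 library each). Atp10a stayed short of it in all 13. Atp8b4 passed in 9 of 13. Atp10d, not tested, lay between -2.41 and -2.25. Atp9b, at 0.0028, was below 0 with DESeq2 (-0.0024), a mean of at least 50 counts (-0.026), RLE factors (-0.011) and upper quartile factors (-0.051), and without 1 library it ran from -0.026 to 0.056, below 0 without vehicle replicate 2 (-0.012) or 3 (-0.025) and without ALX-5407 replicate 1 (-0.026) or 3 (-0.0048). With an absolute log2 fold change over 1 as a second threshold, 0 of the 8 members other than Atp10d were lower and 0 were higher by edgeR (4 and 2 without it, and 4 and 2 at an unadjusted p under 0.05), and over all genes 1064 were lower and 536 higher, against 3695 and 3910 without it. The median of all genes was -0.048 with upper quartile factors, against 0.0053. Without 1 library, 3 or 4 members other than Atp10d were lower and 2 higher.

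Correlations of same-numbered libraries' deviations from their group means were -0.0084, 0.0036 and 0.063. Those of differently numbered libraries ran from -0.061 to 0.066. With 3 libraries per group, these values cannot decide whether the replicate numbers pair the cultures. With the replicate block, 4071 genes were higher and 3833 lower, and 4 of the 8 members were lower and 2 higher.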
